A study of Mus musculus with 6 samples.

Results

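Serpins are protease inhibitors and their relatives, a protein family of shared fold whose genes are named Serpin, followed by a letter for the clade. Of 24421 gene entries in the deposited count table of mouse induced pluripotent stem cells (iPSCs), 63 had names starting with Serpin. The 17 with a mean of at least 10 counts over the 6 libraries were compared between the groups and are described by clade, and the other 46 by their counts. The bulk RNA libraries came from 2 groups of these cells, which are made from body cells and can form all tissues. According to the labels, SRF KO cells (SRFΔ/Δ) lacked the gene of serum response factor (SRF), and WT cells were SRFf/f, the usual notation for a conditional (floxed) allele that has not been deleted, so that WT does not mean an unmodified line. Both groups had 3 libraries and both were grown with serum. Whether the replicates were separate clones or cultures of 1 clone, and whether feeder cells were present, is not given in the sources used here, so that p-values measure the spread between these libraries, which may be technical.

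Most serpins are suicide inhibitors. The target protease cuts an exposed reactive loop and is then trapped in a covalent complex, which receptors of the LDL receptor family clear from the cell surface. Clades A and C to I are mainly secreted, acting on coagulation, fibrinolysis, complement and matrix proteases, whereas clade B serpins mainly stay inside cells. Some members inhibit no protease: HSP47, the product of Serpinh1, is a chaperone of procollagen in the endoplasmic reticulum. In early mouse development, matrix-producing endoderm and fibroblasts are known to secrete serpins together with plasminogen activators.

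Total counts were between 26321602 and 36680156 per library. Srf counts were 113, 84 and 131 in SRF KO against 1326, 765 and 1066 in WT, a log2 change of -3.12 with an SE of 0.13 (adjusted p 8.1e-09, edgeR), in the direction of the labels. WT replicate 2 stood apart from the other WT libraries on the second principal component, at -15.6 against 5.87 and 10.7. SRF KO replicate 2 stood apart on the same side, at -6.20 against 2.63 and 2.63. Pluripotency markers were expressed in all libraries, with summed levels of 5862 to 5973 CPM (counts divided by the TMM-adjusted library size) in SRF KO and 7192 to 7713 CPM in WT. Of these 12 markers, 7 were lower in SRF KO and 1 was higher. Markers of other cell types moved with the groups. All 14 fibroblast markers were higher in SRF KO, with a summed level of 1430 to 1743 CPM against 695 to 804 CPM, and so were all 12 primitive endoderm markers, at 3294 to 3527 CPM against 626 to 664 CPM.

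Most of the reported serpins were higher in SRF KO. Of the 17, 11 rose, 2 fell and 4 did not pass the threshold, an adjusted p under 0.05 (quasi-likelihood test of edgeR, p-values adjusted by Benjamini and Hochberg's method over all entries tested), as for all adjusted p-values here. That is 64.7% higher, where 21.2% of 14778 genes tested were called higher and 21.3% lower, 42.4% in all. For 13 of the 17 the groups did not overlap, with all libraries of one above all of the other, against 52.7% of all genes tested. With a log2 change of 1 or more in size also asked for, 7 of the 17 passed, against 7.29% of genes. The median log2 fold change (SRF KO over WT) was 0.84 over the members and -0.01 over all genes tested. Serpina3g and Serpina3n reached the minimum of 10 only through the SRF KO libraries, with a WT mean under it, so that their place among the members that rose follows from the minimum. Of the 12 members with a mean of 50 or more counts, 6 rose, 2 fell and 4 did not pass the threshold, with a median of 0.50. Of these 12, 9 had groups without overlap and 4 had a log2 change of 1 or more in size. In bulk RNA, fewer cells of a type and less RNA per cell cannot be told apart.

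**Figure D1:**
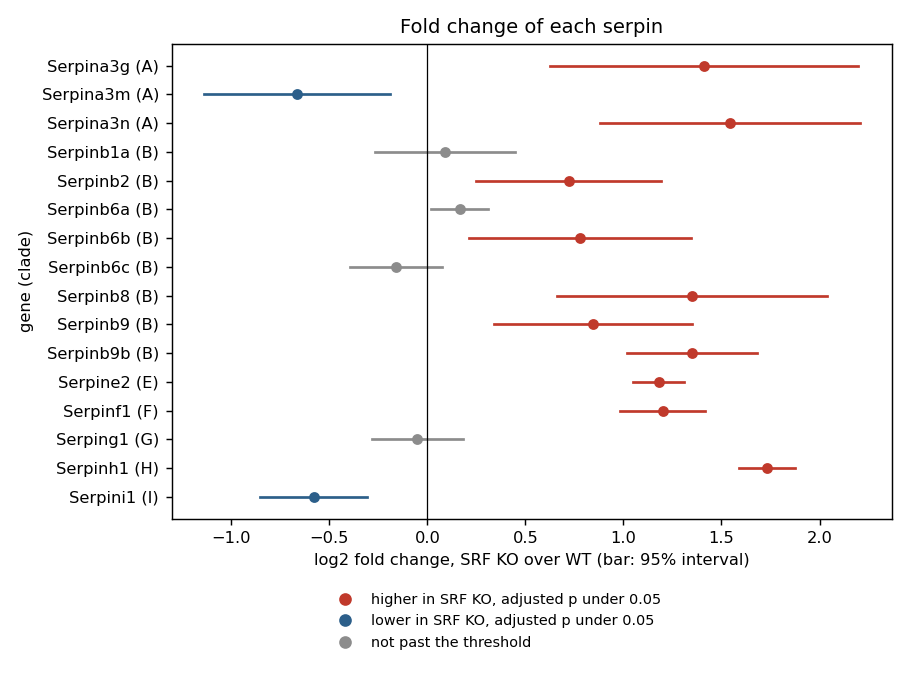
Log2 fold change (x axis, SRF KO over WT) of 16 serpins with a mean of at least 10 counts (y axis, clade in parentheses), with bars for the 95% interval from edgeR's standard error. Serpine2, Serpinf1 and Serpinh1 lie between 1.18 and 1.73 with short bars, Serpina3m and Serpini1 lie below 0, and 4 grey members did not pass the threshold.

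Serpinh1 encodes HSP47, which binds procollagen during folding and inhibits no protease. Its levels were 332, 316 and 319 CPM in the SRF KO libraries and 97.3, 88.0 and 105.6 CPM in the WT libraries. The groups were far apart, and the lowest SRF KO library lay well above the highest WT library. The mean rose from 97.0 ± 8.81 to 322 ± 8.79 CPM (n = 3, ± SD), which is a log2 change of 1.73 with an SE of 0.07 (adjusted p 3.57e-09, edgeR). In edgeR's fit this was the largest fold change of the 17. The gene lies at chr7:99345376-99353239 (GRCm38, minus strand).

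Clade E holds inhibitors of plasminogen activators and thrombin. Serpine2 (protease nexin-1, an inhibitor of thrombin and of plasminogen activators at the cell surface) had 75.1, 72.6 and 80.2 CPM in SRF KO and 31.8, 34.8 and 34.1 CPM in WT. Both of its groups were tight and did not overlap, at a log2 change of 1.18 with an SE of 0.06 (adjusted p 5.05e-08, edgeR). Serpine3, also of the clade, had 1 count in all libraries together. Serpine2 lies at chr1:79794197-79861180 (GRCm38, minus strand).

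Of clade F, Serpinf1 encodes PEDF, a secreted protein that restrains vessel growth and has no known inhibitory activity. It had 46.9, 39.5 and 48.9 CPM in SRF KO and 21.2, 16.9 and 20.6 CPM in WT. Within each group replicate 2 was the lowest library, and the groups did not overlap. The mean rose from 19.6 ± 2.32 to 45.1 ± 4.93 CPM (n = 3, ± SD), which is a log2 change of 1.20 with an SE of 0.10 (adjusted p 2.56e-06, edgeR). Its neighbour Serpinf2 (alpha2-antiplasmin, the plasma inhibitor of plasmin) was under the minimum of 10, with 18, 15 and 10 counts in SRF KO and 1, 1 and 1 in WT. Serpinf1 lies at chr11:75409769-75422701 (GRCm38, minus strand).

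The fold changes of Serpine2 and Serpinf1 fell within the range of the 14 fibroblast markers, 0.81 to 1.38, and that of Serpinh1 lay above it. The 12 primitive endoderm markers ranged from 1.38 to 3.95. Fibroblasts and matrix-producing endoderm are both known to express serpins of these clades, and the part of such cells in the rises was not tested.

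The stretch before the start site of a gene is where motifs of its regulators can be read. RefSeq promoters (GRCm38.p6) were matched for 13 of the 17 members, and the 250 bases before the start site were searched on both strands for 6 motifs. Start sites of RefSeq and GENCODE differ for some genes, so that a window can lie inside the GENCODE gene. The CArG box, the motif bound by SRF, was in none of the 15 windows of these 13 members, and in 1.47% of 32851 promoter windows of the same length. The other motifs were GGGCGG (bound by SP1, in 32.7% of all windows), TATAAA (the TATA box, 12.4%), AGATAA (bound by GATA factors, 9.99%), TGANTCA (bound by AP-1, 6.75%) and GAANNTTC (part of a heat shock element, 6.69%). Serpinh1, Serpine2 and Serpinf1 had a window, shown 5′ to 3′ because these genes rose together, with matches to the 6 motifs in capitals.
Serpinh1 (chr7:99353240-99353489, minus strand): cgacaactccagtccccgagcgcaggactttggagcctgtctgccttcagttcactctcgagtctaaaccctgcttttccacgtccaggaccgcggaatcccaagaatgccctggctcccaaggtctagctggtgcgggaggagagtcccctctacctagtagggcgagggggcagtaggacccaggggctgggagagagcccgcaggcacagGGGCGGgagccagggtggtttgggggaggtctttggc
Serpine2 (chr1:79858666-79858915, minus strand): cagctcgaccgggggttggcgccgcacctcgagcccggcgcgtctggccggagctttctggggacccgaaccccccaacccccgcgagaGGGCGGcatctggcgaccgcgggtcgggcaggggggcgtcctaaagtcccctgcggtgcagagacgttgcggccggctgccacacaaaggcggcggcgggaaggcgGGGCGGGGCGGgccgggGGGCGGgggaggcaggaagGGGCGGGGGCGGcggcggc
Serpinf1 (chr11:75422624-75422873, minus strand): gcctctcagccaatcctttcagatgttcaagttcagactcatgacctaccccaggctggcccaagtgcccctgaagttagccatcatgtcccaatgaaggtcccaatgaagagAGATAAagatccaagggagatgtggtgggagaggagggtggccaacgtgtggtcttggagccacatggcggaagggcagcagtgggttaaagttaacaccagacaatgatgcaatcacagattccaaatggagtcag
These windows hold different matches: Serpinh1 had 1 GGGCGG match, Serpine2 had 6, of which a pair overlaps, and Serpinf1 had none but 1 AGATAA match, which starts 137 bases before the start site. The 3 genes were therefore not alike in the motifs searched. GC content was 63.6% for Serpinh1, 78.8% for Serpine2 and 51.6% for Serpinf1, against a median of 52.4% over all windows. A match is a description of letters, and an absent match says only that the letters are not in this window.

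**Figure D2:**
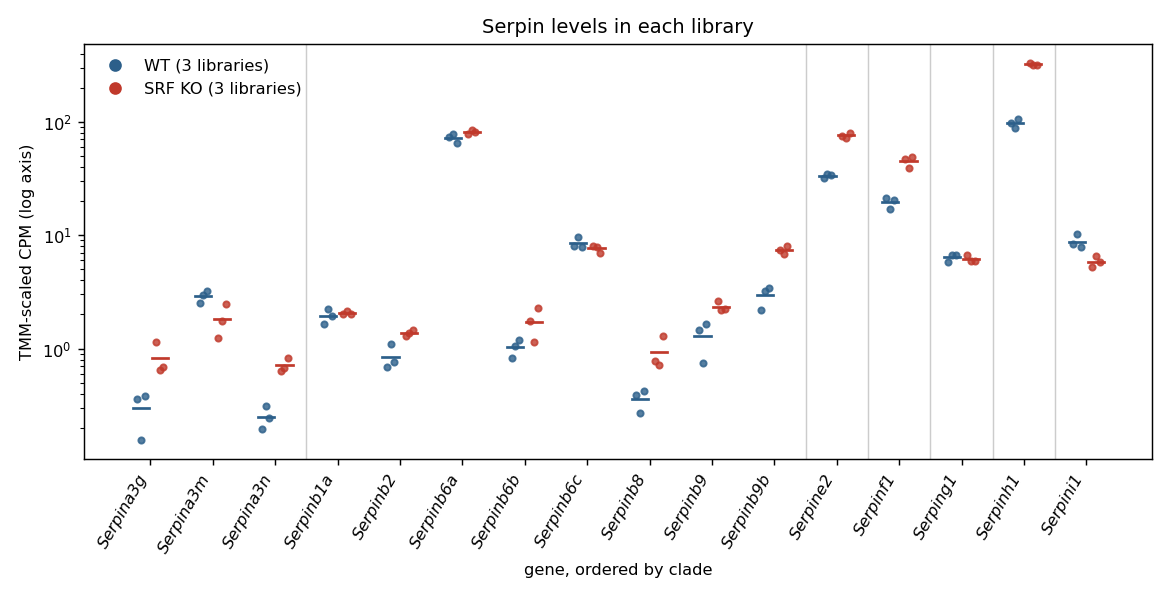
TMM-scaled CPM (y axis, log scale) of 16 serpins, ordered by clade with grey lines between clades; points are the 3 WT (blue) and 3 SRF KO (red) libraries and short lines their means. Serpinh1 separates most widely, with SRF KO libraries between 316 and 332 CPM and WT libraries between 88.0 and 105.6 CPM, while Serping1 and Serpinb6c overlap.

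Clade B, the intracellular serpins, was divided. Of its 8 reported members 5 rose and 3 did not pass the threshold, with a median log2 fold change of 0.75. That is 62.5% higher, against 21.2% of all genes tested. Serpinb6a, an inhibitor of serine proteases in the cytosol and the most abundant of the clade, had 78.4, 84.1 and 81.9 CPM in SRF KO and 74.3, 78.4 and 65.4 CPM in WT. The groups all but touched, at a log2 fold change of 0.16 (95% interval 0.02 to 0.31, edgeR adjusted p 0.0658). It passed the threshold without WT replicate 2 (log2 fold change 0.22). Serpinb6a exons overlap exons of Nqo2, Ripk1 and an antisense gene on the other strand for up to 14.1% of their length, and without known strand such reads cannot be told apart. Serpinb6c had 8.10, 7.93 and 6.91 CPM in SRF KO and 8.09, 9.64 and 7.95 CPM in WT, which overlap (log2 fold change -0.16, 95% interval -0.39 to 0.08, edgeR adjusted p 0.264). Serpinb1a, whose human relative inhibits neutrophil elastase, had 54 to 58 counts in SRF KO and 56 to 60 counts in WT, with a log2 fold change of 0.09 and a 95% interval of -0.27 to 0.45.

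The firmest change of clade B was in Serpinb9b, a relative of Serpinb9 in the same cluster. Its levels were 7.43, 6.84 and 8.02 CPM in SRF KO and 2.21, 3.23 and 3.45 CPM in WT. All SRF KO libraries lay above all WT libraries, at a log2 change of 1.35 with an SE of 0.15 (adjusted p 3.13e-05, edgeR). Serpinb9, the inhibitor of granzyme B that shields cytotoxic cells from their own protease, had 71, 58 and 64 counts in SRF KO and 53, 19 and 47 counts in WT. Its mean rose from 1.28 ± 0.477 to 2.35 ± 0.253 CPM (n = 3, ± SD), which is a log2 fold change of 0.84 (edgeR adjusted p 0.0124) whose call was lost without SRF KO replicate 1 (0.75). Gzma and Gzmb, the granzymes themselves, had no counts in any library. Summed over the Serpinb9 subfamily, the log2 fold change was 1.21 (SE 0.12; adjusted p 1.2e-05, edgeR).

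Serpinb9 and Serpinb9b are neighbours on chromosome 13, at chr13:33003250-33017957 and chr13:33027416-33041884 (GRCm38, both plus strand). Of their RefSeq windows before the start site, that of Serpinb9 lies inside the GENCODE gene. Both windows held none of the 6 motifs. They are shown because these adjacent copies rose together and resemble each other; capitals mark runs of at least 10 bases found in both windows.
Serpinb9 (chr13:33004291-33004540, plus strand): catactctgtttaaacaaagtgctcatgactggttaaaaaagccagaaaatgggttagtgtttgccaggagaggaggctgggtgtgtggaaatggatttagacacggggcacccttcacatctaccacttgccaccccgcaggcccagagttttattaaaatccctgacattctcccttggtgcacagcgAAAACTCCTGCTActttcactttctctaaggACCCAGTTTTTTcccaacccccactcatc
Serpinb9b (chr13:33027164-33027413, plus strand): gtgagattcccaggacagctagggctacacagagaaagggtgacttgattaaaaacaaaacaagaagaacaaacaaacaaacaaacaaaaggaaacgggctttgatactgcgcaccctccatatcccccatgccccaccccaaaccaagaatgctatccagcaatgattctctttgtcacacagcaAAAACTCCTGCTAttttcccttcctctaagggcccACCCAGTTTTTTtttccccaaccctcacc
The best local alignment matched 117 of 166 columns (70.5%), and the longest shared run was 13 bases long. That run was in 3 of the 32851 windows, those of Serpinb9, Serpinb9b and Txk. By the same method the windows of Serpina3g and Serpina3n, the only other pair aligned, matched 104 of 162 columns (64.2%). Their longest shared run, of 10 bases, was in 26 windows. Of the 50-base words of Serpinb9b transcripts, 0.388% were also in Serpinb9.

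The remaining clade B members had few counts. Serpinb8, an inhibitor of furin, had 19 to 37 counts in SRF KO and 7 to 14 in WT, with no overlap in CPM and a log2 change of 1.35 with an SE of 0.31 (adjusted p 0.00492, edgeR). Serpinb2 (PAI-2, an inhibitor of urokinase-type plasminogen activator) had 35 to 42 counts in SRF KO and 22 to 28 in WT, with a log2 fold change of 0.72 (edgeR adjusted p 0.0192). It shares 12.4% of its exon length with Serpinb10, which had a mean of 0.50 counts. Serpinb6b had 30 to 66 and 27 to 34 counts, with CPM values that overlapped, and a log2 fold change of 0.78 (edgeR adjusted p 0.0314). Both calls were fragile. That of Serpinb2 was lost with DESeq2 (0.72) and without SRF KO replicate 3 (0.67), WT replicate 1 (0.57) or WT replicate 3 (0.67). That of Serpinb6b was lost without SRF KO replicate 1 (0.77) or 3 (0.51) or WT replicate 1 (0.63), and in the summed Serpinb6 subfamily, at 0.14, of which Serpinb6a gives most reads.

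Clade A holds the antitrypsin and antichymotrypsin relatives, many but not all of which liver secretes into plasma. Its 3 reported members all belong to the Serpina3 subfamily and did not move alike. Serpina3m had 1.23, 1.74 and 2.45 CPM in SRF KO and 2.51, 2.95 and 3.24 CPM in WT. The highest SRF KO library lay just under the lowest WT library, at a log2 change of -0.66 with an SE of 0.22 (adjusted p 0.0282, edgeR). Serpina3n (an inhibitor that can act on granzyme B) had 17, 18 and 24 counts in SRF KO against 7, 8 and 7 in WT. Serpina3g had 31, 17 and 20 counts against 13, 4 and 11. Both rose without overlap in CPM, by 1.54 (SE 0.30; adjusted p 0.00172, edgeR) and 1.41 (SE 0.36; adjusted p 0.00813, edgeR) on the log2 scale. Both reached the minimum mean count only through their SRF KO counts, with a WT mean under it. Their direction therefore followed from the minimum, and neither the p-values nor the lack of overlap test it.

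These copies share sequence. Of the 50-base words of Serpina3m transcripts, 19.1% were also in other genes, as were 15.5% of those of Serpina3g and 6.90% of those of Serpina3n, and how reads that fit several copies were counted is not given in the sources used here. Summed over the subfamily, the log2 fold change was 0.05 (SE 0.14; adjusted p 0.805, edgeR), which did not pass the threshold. The call of Serpina3m was also lost without replicate 1 (-0.45) or 2 (-0.63) of SRF KO or replicate 3 of WT (-0.58). In words of the same length, Serpinh1, Serpinf1 and Serping1 shared none with any other gene, and Serpine2 shared 0.0728%.

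**Figure D3:**
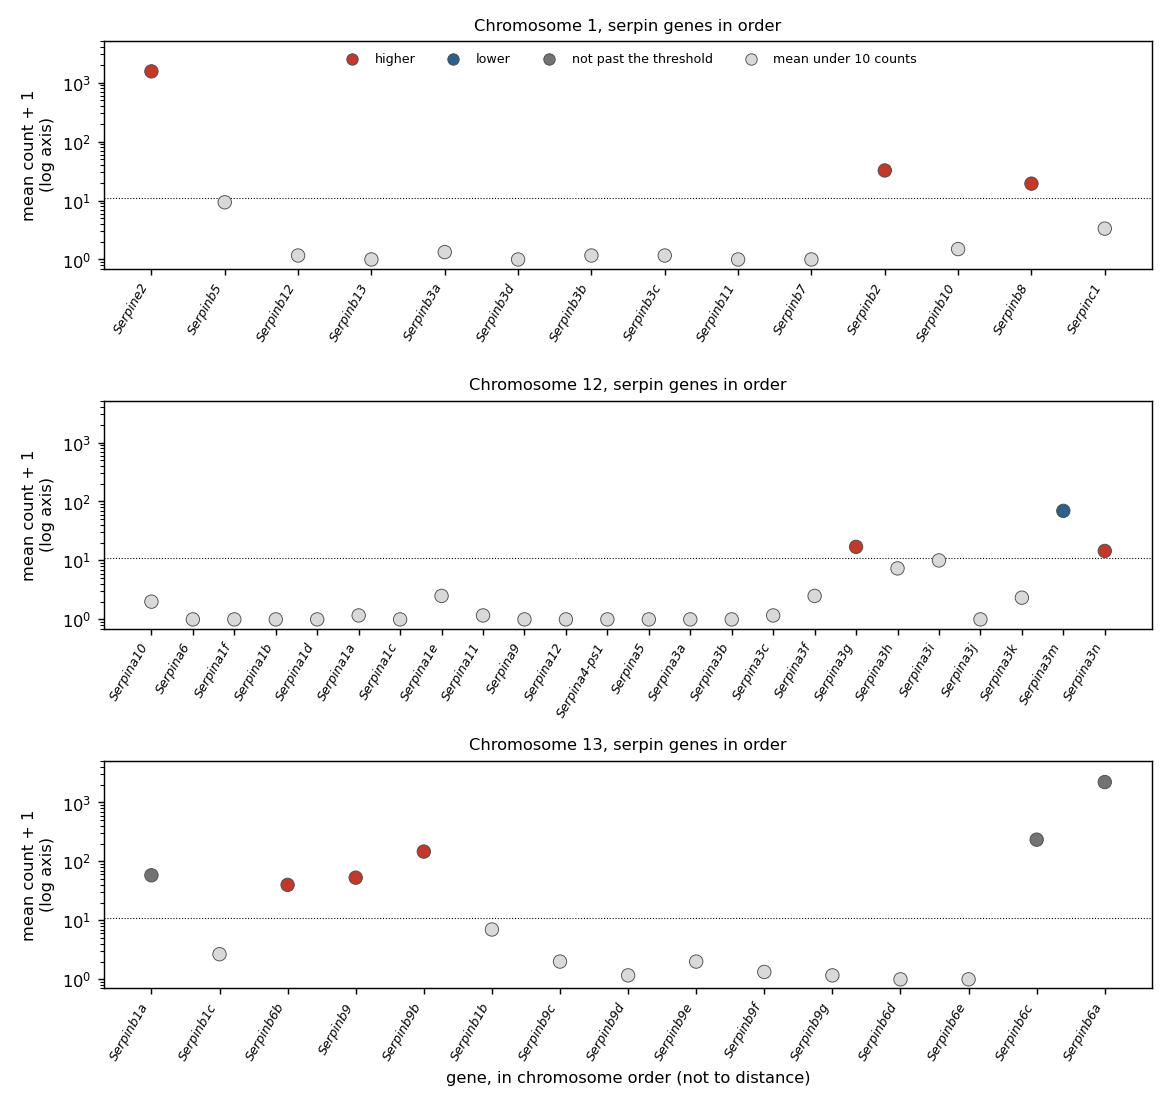
Mean count over the 6 libraries plus 1 (y axis, log scale) of the serpin genes of chromosomes 1, 12 and 13 in chromosome order (x axis, not to distance); the dotted line marks a mean of 10 counts. Coloured points are reported members, and on chromosome 13 Serpinb6b, Serpinb9 and Serpinb9b, which rose, stand next to each other between genes with few or no counts.

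The serpin clusters were mostly silent. On chromosome 12, 3 of 24 serpin genes reached the minimum, all at the Serpina3 end of the row. On chromosome 13, 6 of 15 did: Serpinb6b, Serpinb9 and Serpinb9b are adjacent and all rose, whereas Serpinb1a at one end and Serpinb6c and Serpinb6a at the other did not pass the threshold. On chromosome 1, Serpine2, Serpinb2 and Serpinb8 reached it, of 14.

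Clades G and I each had 1 reported member. Serping1, the C1 inhibitor of complement and of the contact system, had 6.73, 5.89 and 5.88 CPM in SRF KO and 5.83, 6.72 and 6.69 CPM in WT. The libraries were interleaved, at a log2 fold change of -0.05 with a 95% interval of -0.29 to 0.18 (edgeR adjusted p 0.732). Serpini1 (neuroserpin, a neuronal inhibitor of tissue-type plasminogen activator) had 5.24, 6.53 and 5.81 CPM in SRF KO and 8.37, 10.2 and 7.81 CPM in WT. It fell by 0.58 on the log2 scale (SE 0.12; adjusted p 0.00288, edgeR), with no overlap. Of 7 neuron markers tested, 3 were lower and 1 higher, so that 57.1% were called, against 42.4% of all genes tested. The summed level of the neuron markers was 64.4 to 66.9 CPM in SRF KO and 76.5 to 79.6 CPM in WT. Tubb3, the most abundant of them, had a log2 fold change of -0.01 and Map2 one of -1.33. Their part in the fall of Serpini1 was not tested.

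Levels of different genes were set side by side per kb of exon. Among the members described, the highest in WT were Serpinh1 at 39.7 ± 3.61, Serpinb6a at 13.4 ± 1.22, Serpinf1 at 8.29 ± 0.981, Serpinb6c at 6.15 ± 0.675 and Serpine2 at 4.05 ± 0.187 CPM per kb (SD, n = 3), with no overlap between neighbours. Lower in the WT order, Serpinb9b and Serpinb1a overlapped, as did Serpinb6b, Serpinb9 and Serpinb2 in turn, and Serpina3g and Serpina3n. In SRF KO the highest of them were Serpinh1 at 132 ± 3.60, Serpinf1 at 19.1 ± 2.09, Serpinb6a at 15.1 ± 0.531 and Serpine2 at 9.17 ± 0.467 CPM per kb. Serpinf1 thus stood above Serpinb6a in SRF KO and below it in WT.

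Over all 63 serpin entries the summed level was 243 ± 9.87 CPM per kb in the SRF KO group against 109 ± 4.39 in WT (n = 3, ± SD), a ratio of 2.23. Serpinh1 gave 54.4% ± 1.82 of this sum in SRF KO and 36.5% ± 1.86 in WT. The share of Serpinb6a was 6.22% ± 0.446 and 12.4% ± 1.61. The shares of Serpinf1, at 7.86% ± 0.555 and 7.62% ± 0.694, and of Serpine2, at 3.78% ± 0.104 and 3.74% ± 0.259, differed by less than the SD within the WT libraries.

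**Figure D4:**
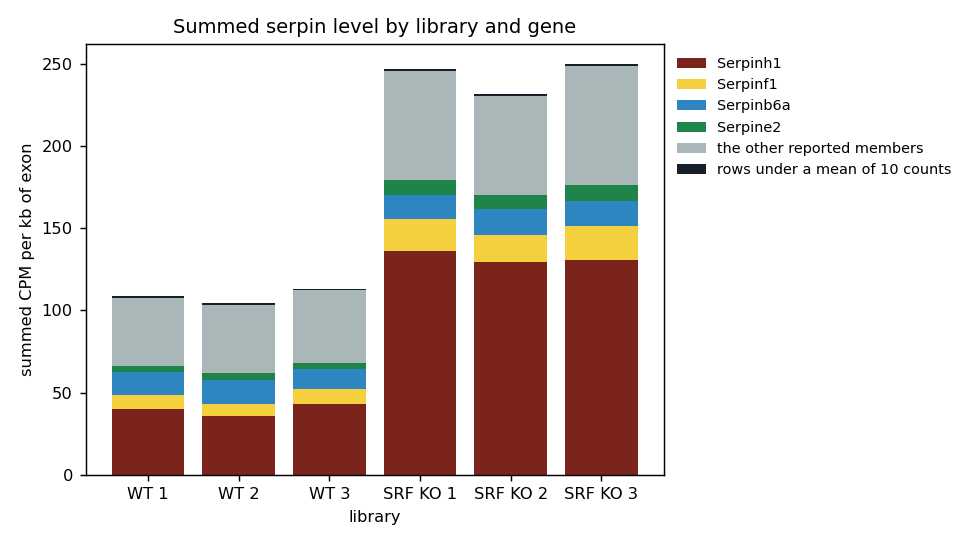
Summed CPM per kb of exon over all serpin entries (y axis) in each library (x axis), divided by gene. Bars reach 231 to 249.6 in SRF KO and 104 to 113 in WT, and the Serpinh1 segment is the largest of the 4 genes drawn singly.

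Of the 46 serpin entries under a mean of 10 counts, 19 had no count in any library. These included Serpina6, which binds corticosteroids in plasma, and 4 of the 6 Serpina1 entries, the genes of antitrypsin and its close relatives. Serpina1e had 1, 4 and 4 counts in SRF KO and none in WT. Serpinc1 (antithrombin) had 0 to 2 counts in SRF KO and 2 to 6 in WT, and Serpind1 (heparin cofactor II) at most 2 in any library. The upper limit for a count of 0 is 3 counts, or 0.0828 to 0.117 CPM depending on the library. Of 10 hepatocyte markers, 8 had at most 3 counts in every library, with Apcs and Ugt2b1 at 0. The hepatocyte marker that could be tested, Fgb (fibrinogen beta chain), had 22, 22 and 21 counts in SRF KO and 0 in each WT library (edgeR adjusted p 2.11e-05). It could be tested only because of its SRF KO counts, so that its direction followed from the filter on low counts. Of 12 visceral endoderm markers, 9 could be tested and 8 of these were higher in SRF KO, against 21.2% of all genes tested. For 1 of the 9, no WT library had more than 3 counts, so that its direction followed from the filter on low counts. Afp, also on that list, had at most 3 counts in every library. The entries nearest the minimum were Serpina7 with a mean of 9.33 counts and Serpina3i with 9 on the lower side, and Serpina3n with 13.5 and Serpina3g with 16.0 on the upper side.

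The partners of serpins were described from lists typed from general knowledge. The list called target proteases here had 42 genes and holds partners and functional neighbours of serpins as well as targets. Of the 42, 13 had at most 3 counts in every library, among them Elane and Ctsg. Of the 28 tested, 18 rose, 4 fell and 6 did not pass the threshold, with a median log2 fold change of 0.75. Over all genes tested 42.4% were called and the median was -0.01. Among the proteases that rose, Prss12 had 7, 2 and 1 counts in WT and could be tested only because of its SRF KO counts. Its direction therefore followed from the filter on low counts. The plasminogen activators, targets of Serpine2 and Serpini1, were both higher. Plau rose from 3.57 ± 0.136 to 8.98 ± 0.194 CPM (n = 3, ± SD), which is a log2 change of 1.33 with an SE of 0.10 (adjusted p 9.69e-07, edgeR). Plat, named after its values were seen, rose from 5.35 ± 0.233 to 12.6 ± 1.06 CPM, a log2 fold change of 1.25. Serpine2 thus rose and Serpini1 fell while both proteases rose, and Plg, the plasminogen they activate, had at most 3 counts in any library. The lysosomal cathepsins Ctsh and Ctsl rose by 2.98 and 1.35 and the protease Prss23 by 1.34 on the log2 scale (edgeR adjusted p 1.02e-09, 3.96e-09 and 5.87e-07).

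Receptors and cofactors followed. Of 25 tested, 16 rose, 2 fell and 7 did not pass the threshold, with a median of 0.32, where 21.2% of all genes tested were called higher and 21.3% lower. Lrp2 (megalin, an endocytic receptor of visceral endoderm that takes up protease-serpin complexes) rose from 33.9 ± 1.25 to 504 ± 32.7 CPM (n = 3, ± SD), which is a log2 change of 3.89 with an SE of 0.06 (adjusted p 4.31e-12, edgeR). Its chaperone Lrpap1 rose by 1.20, Hs3st1, an enzyme that makes the antithrombin-binding site of heparan sulphate, by 3.61, and Plaur, the urokinase receptor, by 1.31 on the log2 scale (edgeR adjusted p 8.46e-09, 1.18e-08 and 9.91e-08).

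Collagen folding, the pathway of HSP47, rose nearly throughout. Of 30 tested genes 27 rose, 1 fell and 2 did not pass the threshold, with a median of 0.62, also with Mia2 set to its bound, against 21.2% higher and 21.3% lower over all genes tested. The subunits of prolyl 4-hydroxylase P4ha2 and P4hb rose from 17.7 to 35.6 CPM and from 431 to 658 CPM (edgeR adjusted p 2.92e-06 and 1.45e-06). The lysyl oxidases Lox and Loxl2, which crosslink collagen, rose by 1.11 and 0.80 on the log2 scale (edgeR adjusted p 7.47e-07 and 2.06e-06). Tmem38b, an ion channel of the endoplasmic reticulum, fell by 0.28. Serpinh1, at 1.73, rose by more than 28 of these 30 genes. The exceptions were the prolyl 3-hydroxylase P3h2 at 2.22 and Mia2, a cargo receptor at least 10.8-fold higher against a floor of 3 counts. Mia2, counted among the 27 that rose, had 1, 0 and 1 counts in WT. It could be tested only because of its SRF KO counts, so that its direction followed from the filter on low counts. The Ctage5 entry of the same list had a log2 fold change of 0.17. The genes of this list too moved with the fibroblast and endoderm markers, and the part of such cells was not tested.

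**Figure D5:**
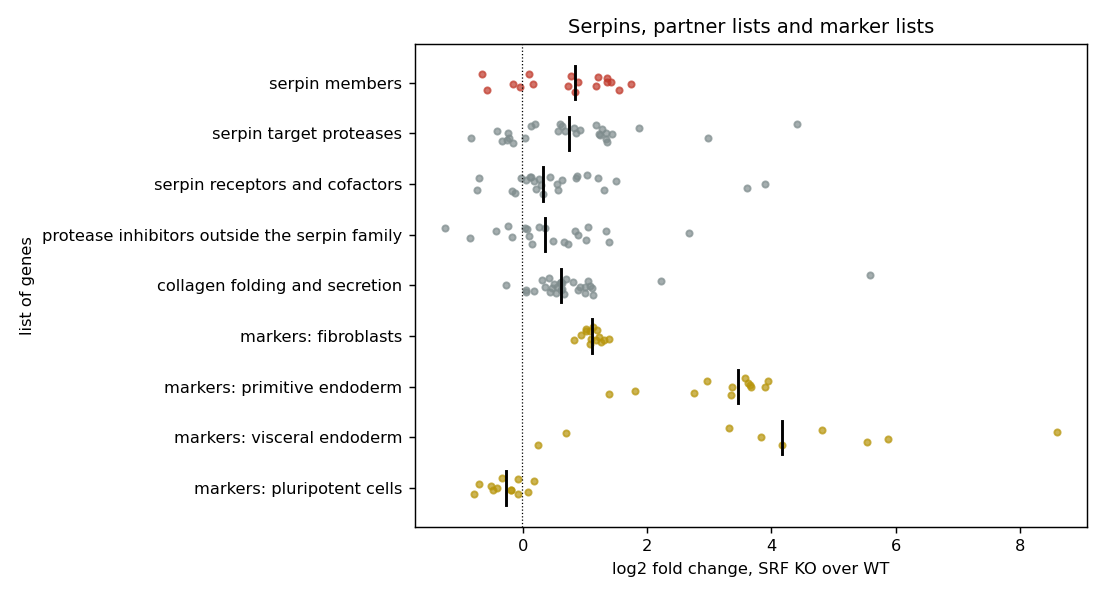
Log2 fold change (x axis, SRF KO over WT) of each tested gene on the lists named on the y axis; points are genes, spread vertically for visibility, black bars are medians and the dotted line is the median of all genes tested. The serpin median, 0.84, lies under that of the fibroblast markers, 1.11, and of the primitive endoderm markers, 3.46, and above that of the pluripotency markers, -0.27.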

How the data were processed

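The authors deposited 1 table of whole-number counts of reads per gene and per transposable element subfamily, not normalized, judged from its values. Reads with adaptors or of low quality had been filtered out, per the labels' protocols. The build mm10 and DESeq2 are named in the submitters' processing notes without a role; the aligner, the counter and strand use are not given in the sources used here.

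All 24421 gene and 1146 transposable element entries were fitted together in R 4.3.3 with edgeR 4.0.16 (filterByExpr, minimum count 10, TMM scaling, quasi-likelihood test of 3 SRF KO against 3 WT libraries, Benjamini-Hochberg adjustment over 15611 entries, threshold 0.05). All 17 members passed the filter; the other 46 did not. SE is the log2 fold change over the square root of F. Alternatives were DESeq2 1.42.0, RLE scaling, no filter, gene entries alone, a replicate block, each replicate left out, stricter thresholds, a higher count minimum and subfamily sums. Depth, 26321602 to 36680156 counts per library, limits low genes, and floors cover counting error only. Coordinates and exon lengths come from GENCODE M21 (GRCm38), which held all 63 serpin names. The fit was tested on simulated data.

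Members and lists were chosen with earlier results of these data known. One member enters the counts and sums only and is not reported here. Values per library are given for the others of the 10 members with the highest mean counts, ranges or counts for the rest, and up to 4 genes per partner list by smallest p; others were named after their values were seen. No replicate pair agreed within sampling noise, with a chi-square per degree of freedom of at least 1.60.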

Additional observations from a re-analysis of the deposited data

How the results depend on the processing

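Among counts of genes called, 114 values under an alternative stayed within 1.5 times the reported count and 18 did not. Serpin members higher were 7 with a log2 change of 1 or more in size and 6 among members with a mean of 50 or more counts, and members lower were 0 at that fold and 1 at an adjusted p under 0.01. At that fold, target proteases were 11 higher and 0 lower, receptors 6 and 0, other inhibitors 5 and 1, and collagen folding genes 7 and 0; such thresholds lower counts by construction. Target proteases lower were 2 at an adjusted p under 0.01. With each replicate left out in turn, serpin members higher were between 9 and 12, serpin members lower were between 1 (without SRF KO replicate 1 or 2 or WT replicate 3) and 2, and target proteases lower between 2 (without SRF KO replicate 2 or WT replicate 1) and 5 (without WT replicate 2). Among values of single members, 179 kept their call or stayed without one, 14 lost it, 2 gained one and 1, Serpina3m in the summed subfamily, changed sign (log2 fold change 0.050). Of members not called, Serpinb1a without WT replicate 1 (-0.03) and Serpinb6c in the summed subfamily (0.14) also changed sign. Those of Serpinh1, Serpine2, Serpinf1, Serpinb9b, Serpinb8 and Serpini1 all kept direction and call. The cause was not tested.

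Deviations from the group means correlated at 0.0592, 0.328 and 0.183 between libraries of the same replicate number. Of 6 libraries, 4 correlated best with their own number. Replicate 2 lay apart on the second principal component in both groups, at -15.6 in WT and -6.20 in SRF KO. Whether libraries of the same number were paired is therefore not settled, and the main fit used no pairing. With a replicate block, 12 serpin members, now with Serpinb6a (0.17), were higher and 2 lower. Depth limits Serpina3g, Serpina3n and Serpinb8.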

Other observations

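Protease inhibitors outside the serpin family were also measured. Of 21 tested, 10 rose, 4 fell and 7 did not pass the threshold in SRF KO against WT, with a median log2 fold change of 0.35. Over all genes tested 21.2% were called higher, 21.3% lower and the median was -0.01, so that the share that fell was close to that of all genes. The metalloprotease inhibitors Timp2, Timp3 and Timp1 rose by 1.33, 1.01 and 1.05 on the log2 scale (edgeR adjusted p 3.34e-07, 5.68e-07 and 7e-07). Spink1, a trypsin inhibitor, went from 0.883 ± 0.145 up to 5.72 ± 0.872 CPM (n = 3, ± SD), which is a log2 fold change of 2.67 (edgeR adjusted p 4.74e-07). Itih5, named after its values were seen, had the lowest value of the list, at -1.25.

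Of the remaining marker lists, 3 of 6 tested blood and macrophage genes rose and none fell, with a summed level of 145 to 182 CPM in SRF KO and 99.3 to 113 CPM in WT. Most of this was Lyz2, and Hbb-bs and Hbb-b1 were at 0. Trophoblast genes summed to 40.2 to 42.5 CPM in SRF KO and 37.8 to 38.9 CPM in WT, with 1 of 7 higher and 2 lower. Over all genes tested, the shares to set both lists against were 21.2% higher, 21.3% lower and 42.4% in all. The called share of the trophoblast genes, 42.9%, was thus close to that of all genes.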
